A study of Mus musculus with 23 samples.

Results

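Ear skin of Rhbdf2cub/cub mice was compared with that of Rhbdf2+/+ mice over the whole of an ear-punch experiment, as the equal-weight mean of the genotype differences at 4 times. All 11 Rhbdf2cub/cub arrays (called cub) and all 12 Rhbdf2+/+ arrays (called WT) of the series of 23 arrays entered the comparison. The cub mice were of the strain B6.Cg-Rhbdf2cub/J and the WT mice of C57BL/6J, so each genotype was 1 strain. Whether the mice were littermates was not given in the sources used here. All mice were female and 4 weeks old, and tissue came from the ear pinna. At 0 h the ears were labelled as unpunched controls. At 15 min, 2 h and 24 h the ear carried a 2-mm through hole, whose 1-mm rim was taken with a 3-mm biopsy punch. There were 3 arrays in each group, except cub at 15 min with 2. Values are log2 RMA values from Affymetrix Mouse Gene 1.0 ST arrays, and each difference is cub minus WT on that log2 scale. A gene is called where the adjusted p of its average in limma, fitted to all 23 arrays, was below 0.05.

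Rhbdf2 encodes iRhom2, a catalytically inactive member of the rhomboid family that escorts the metalloprotease ADAM17 to the cell surface. ADAM17 releases ligands of the epidermal growth factor receptor (EGFR) from the membrane, and EGFR signalling governs how keratinocytes divide, differentiate and migrate. The cub (curly bare) allele is a spontaneous deletion inside the gene. Homozygous mice have a sparse, wavy coat and close ear holes quickly. The comparison asks which genes differed between the genotypes in 1 direction both before and after the punch.

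The average was called for 3641 of 19938 genes (18.3% of the genes tested), of which 1935 were higher in cub (9.71%) and 1706 lower (8.56%). Of the called genes, 2566 differed in 1 direction at all 4 times (12.9% of the genes tested), 1363 of them higher in cub (6.84%) and 1203 lower (6.03%). These 2566 genes were 70.5% of the called genes. Among genes that were not called, 12.1% had 1 sign at all 4 times. The calls and the signs come from the same arrays, so the first share is a description. Most of the differences were small. The median size was 0.19 for the genes higher in cub and 0.17 for the genes lower in cub. An average of at least 0.5 in size was reached by 58 genes higher in cub and 35 genes lower in cub. At the edge of the call, Ctla2b had an average of 0.21 ± 0.07 (SE, limma adjusted p = 0.04998), and Ppbp, at 0.44 ± 0.15, missed it (adjusted p = 0.0501).

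**Figure D1:**
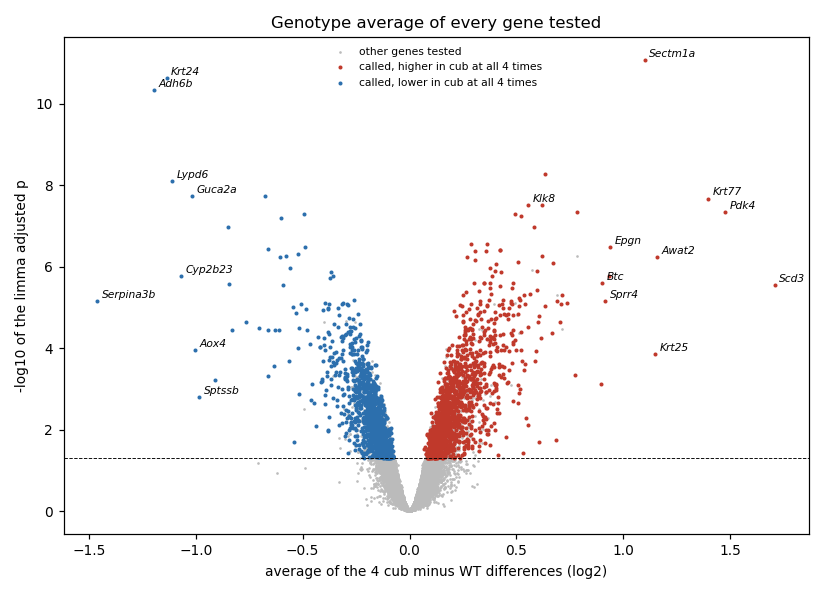
Average of the 4 cub minus WT differences (log2, x axis) against minus log10 of the limma adjusted p (y axis) for the 19938 genes tested, with the threshold of 0.05 dashed. The 1363 red genes were called and higher in cub at all 4 times, and the 1203 blue genes were called and lower in cub at all 4 times. Scd3 lies farthest to the right at 1.71 and Serpina3b farthest to the left at −1.46.

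Stricter rules kept fewer genes. For 236 genes (1.18%) the cub arrays lay all above or all below the WT arrays at each of the 4 times, 153 of them above (0.767%) and 83 below (0.416%). After quantile normalization over the tested genes these numbers were 169 and 151. A total of 35 genes (0.176%) passed the test at each time on its own in 1 direction, 21 of them higher in cub (0.105%) and 14 lower (0.0702%). Without moderation 22 genes did, 16 higher and 6 lower. For 15 genes (0.0752%) all 11 cub arrays lay above or all below all 12 WT arrays, whatever the time, a rule chosen after the values were seen. The 10 that lay above were Krt77, Sectm1a, Serpinb6e, Flrt2, Klk8, Klk7, Elovl1, Tmem176a, Tmem176b and Tmem41a. The 5 that lay below were Adh6b, Krt24, Tll1, Hspa2 and Bbof1. Krt77, Krt24, Klk7, Klk8 and Elovl1 are genes of differentiating epidermis. Flrt2, a membrane protein of cell adhesion, averaged 0.63 ± 0.04 higher in cub (SE, limma adjusted p = 5.27e-09). Hspa2, a chaperone of the Hsp70 family, averaged −0.49 ± 0.04 (adjusted p = 4.96e-08).

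Many genes differed in unpunched ears as well as in punched ones. Unpunched ears alone gave 1047 called genes (5.25%) and the mean of the 3 wounded times 2118 (10.6%), from separate arrays. The same 626 genes (3.14%) passed both tests in 1 direction. Of the 1047 genes called at 0 h, 95.9% had the same sign at 15 min, 83.1% at 2 h and 81.4% at 24 h, against 61.8%, 57.6% and 58.3% of all genes tested. Without replicate 2 of cub at 0 h the 626 genes became 247, and without replicate 2 of WT at 0 h they became 297. Among called genes, 1075 did not hold 1 sign, and for 492 of these the 2 h difference was at 0 or against the average, in some together with another time. A moderated F test of whether the genotype difference varied over the 4 times passed for 300 genes (1.5%). Without moderation 135 genes passed the F test, and with array weights 629. In the main fit 24 genes of 1 sign that were higher in cub and 14 that were lower passed it.

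**Figure D2:**
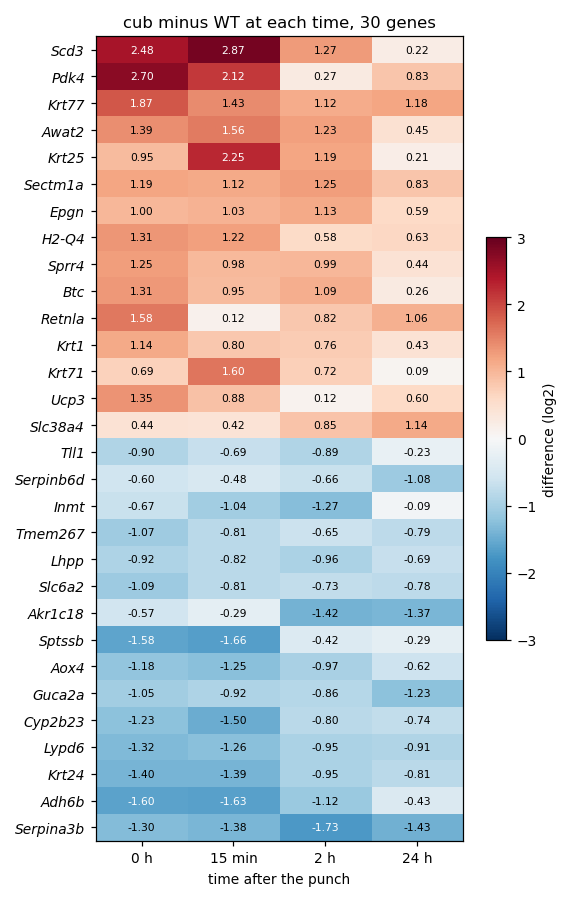
Cub minus WT difference (log2, colour and printed values) at 0 h, 15 min, 2 h and 24 h for the 15 genes furthest up and the 15 furthest down by average among the genes of 1 sign. The differences of Scd3, Pdk4 and Ucp3 were 2.48, 2.70 and 1.35 at 0 h and 0.22, 0.83 and 0.60 at 24 h, with those of Pdk4 and Ucp3 smallest at 2 h (0.27 and 0.12) and that of Scd3 largest at 15 min (2.87), while Sectm1a, Lhpp and Guca2a stayed within a narrow range.

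Promoters of 6 of these genes are printed as the stretch of 250 bases before the annotated start, from RefSeq on GRCm38.p6, 5′ to 3′ on the strand of the gene. Ivl and Sprr1a are from the cornified envelope list and Epgn and Btc from the EGFR ligands. Krt77 and Krt24 are the epidermal keratins that moved most. A promoter was given for 15563 of the 19938 tested genes. Capitals mark AP-1 (TGANTCA), ARE core (TGACNNNGC), TATA box (TATAAA), E-box (CACGTG) and RORE core (AGGTCA) letters, sought on both strands.
Ivl, chr3:92573736-92573985, minus strand: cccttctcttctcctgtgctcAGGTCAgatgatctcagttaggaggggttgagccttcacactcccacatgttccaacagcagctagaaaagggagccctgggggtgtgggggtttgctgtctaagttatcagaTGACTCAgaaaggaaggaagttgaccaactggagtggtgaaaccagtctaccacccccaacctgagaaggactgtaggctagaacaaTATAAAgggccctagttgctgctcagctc
Sprr1a, chr3:92485882-92486131, minus strand: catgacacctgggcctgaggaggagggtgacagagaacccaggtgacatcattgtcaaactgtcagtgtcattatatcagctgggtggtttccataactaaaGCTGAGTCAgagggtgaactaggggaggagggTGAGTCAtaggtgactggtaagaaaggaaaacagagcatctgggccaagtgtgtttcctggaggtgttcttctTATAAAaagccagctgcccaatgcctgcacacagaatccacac
Epgn, chr5:91027267-91027516, plus strand: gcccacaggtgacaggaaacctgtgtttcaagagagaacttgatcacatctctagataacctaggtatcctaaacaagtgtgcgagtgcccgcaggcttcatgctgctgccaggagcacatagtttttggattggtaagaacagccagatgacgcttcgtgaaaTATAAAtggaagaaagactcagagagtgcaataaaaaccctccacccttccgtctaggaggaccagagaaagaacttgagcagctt
Btc, chr5:91402995-91403244, minus strand: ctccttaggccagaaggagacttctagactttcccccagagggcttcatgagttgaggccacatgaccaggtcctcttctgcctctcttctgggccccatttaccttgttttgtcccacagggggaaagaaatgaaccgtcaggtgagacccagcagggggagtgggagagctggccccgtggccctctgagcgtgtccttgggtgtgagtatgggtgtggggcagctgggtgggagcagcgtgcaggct
Krt77, chr15:101869706-101869955, minus strand: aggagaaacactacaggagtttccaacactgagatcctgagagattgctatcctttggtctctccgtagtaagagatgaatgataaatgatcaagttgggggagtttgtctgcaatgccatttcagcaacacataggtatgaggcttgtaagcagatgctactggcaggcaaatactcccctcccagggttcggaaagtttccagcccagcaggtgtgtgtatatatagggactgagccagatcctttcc
Krt24, chr11:99285263-99285512, minus strand: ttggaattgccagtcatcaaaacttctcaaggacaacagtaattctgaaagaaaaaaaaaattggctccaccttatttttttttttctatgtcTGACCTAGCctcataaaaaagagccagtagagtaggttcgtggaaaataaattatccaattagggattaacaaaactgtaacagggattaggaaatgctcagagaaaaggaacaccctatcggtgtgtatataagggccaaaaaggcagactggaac

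In the Ivl window the capitals are the RORE core, AP-1 and TATA box letters, in that order, and in the Sprr1a window AP-1 letters that overlap an ARE core on the other strand, then AP-1 again and the TATA box. The Epgn window holds the TATA box letters only, and in the Krt24 window an ARE core overlaps a RORE core read on the other strand. The Btc and Krt77 windows hold none of the 5 motifs. The windows of the envelope genes Sprr4 and Tchh, which are not printed, hold none of them either. AP-1 letters stood in 6.09% of all promoters, in 7.59% of those of genes of 1 sign that were higher in cub and in 3.79% of those that were lower. TATA box letters stood in 11.2% of all promoters, in 11.1% of the promoters of genes higher in cub and in 6.45% of those of genes lower in cub. Among genes with an average of at least 0.5 in size, TATA box letters stood in 11 of 47 promoters of genes higher in cub (23.4%) and in 3 of 26 of genes lower in cub (11.5%). AP-1 letters stood in 3 of those 47 (6.38%) and in 3 of those 26 (11.5%), the opposite order to that over all genes of 1 sign. For the cornified envelope list, whatever the direction of its members, AP-1 letters stood in 11 of 26 promoters. The counts were 2 of 16 for epidermal proteases and inhibitors, 5 of 26 for the NRF2 pathway and 0 of 15 for clock genes. These are counts of letters and show no binding.

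Keratins, the intermediate filaments of epithelial cells, moved in both directions. Of 17 tested epidermal keratins 5 rose in 1 direction at all 4 times (Krt77, Krt1, Krt23, Krt17 and Krt76) and 3 fell (Krt24, Krt15 and Krt2), against 6.84% and 6.03% of all genes. Krt77, a type II keratin of the suprabasal epidermis and of sweat ducts, had 12.63, 12.92 and 12.68 in cub ears at 0 h, against 11.41, 10.22 and 10.98 in WT ears. Its 24 h values were 12.01, 12.06 and 12.15 in cub ears, against 11.1, 10.61 and 10.97 in WT ears. The lowest cub array, at 12.01, was above the highest WT array of any time, at 11.49. The average was 1.40 ± 0.10 (SE, limma adjusted p = 2.1e-08). Krt1, the next tested gene to Krt77 on chromosome 15 and the main type II keratin of the suprabasal layers, averaged 0.78 ± 0.06 (adjusted p = 4.56e-08). Krt10, the type I partner of Krt1, averaged −0.04 and was not called, and neither were the basal keratins Krt5 and Krt14, at −0.01 and 0.01.

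Krt24, a type I keratin of differentiating keratinocytes, was the keratin that fell most. It had 10.59, 10.35 and 10.59 in cub ears at 0 h, against 11.94, 11.82 and 11.96 in WT ears. At 2 h it had 11.11, 11.23 and 11.09 in cub ears, against 12.18, 12.01 and 12.1 in WT ears. No cub array, up to 11.23, reached the lowest WT array, at 11.24. The average fell by 1.14 (SE 0.05, limma adjusted p = 2.28e-11). Krt15, found in basal keratinocytes and the follicle bulge, averaged −0.42 ± 0.06 (adjusted p = 9.39e-05). Krt2, of the upper layers, averaged −0.24 ± 0.03 (adjusted p = 4.89e-05).

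Genes of the cornified envelope, the crosslinked protein shell of the outermost keratinocytes, rose in 13 of 30 tested cases at all 4 times (43.3%, against 6.84% of all genes), and none fell at all 4 times (6.03% of all genes). The median average of the list was 0.11, against 0.01 for all genes tested. Sprr4, a small proline-rich envelope protein, had 9.73, 10.97 and 10.23 in cub ears at 0 h, against 9.0, 8.95 and 9.23 in WT ears. The values at 24 h were 9.7, 9.57 and 9.83 in cub ears, against 9.52, 9.21 and 9.04 in WT ears. The groups did not overlap at any time, although they came close at 24 h. The average was 0.92 ± 0.11 (SE, limma adjusted p = 6.8e-06). Ivl, involucrin, a scaffold of the envelope, averaged 0.58 ± 0.05 (adjusted p = 1.08e-07), with differences of 0.70, 0.54, 0.46 and 0.63 in order of time. Sprr1a averaged 0.31 ± 0.06 (adjusted p = 0.00119), and the other members of 1 sign included the transglutaminases Tgm1 and Tgm3 at 0.18 and 0.22 and the protease Casp14 at 0.25. Tchh, trichohyalin of the inner root sheath, averaged 0.54 ± 0.09 (adjusted p = 0.000249), with a difference of 1.21 at 15 min and 0.00 at 24 h. Lce3c was called in the other direction, at −0.33, without holding 1 sign.

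**Figure D3:**
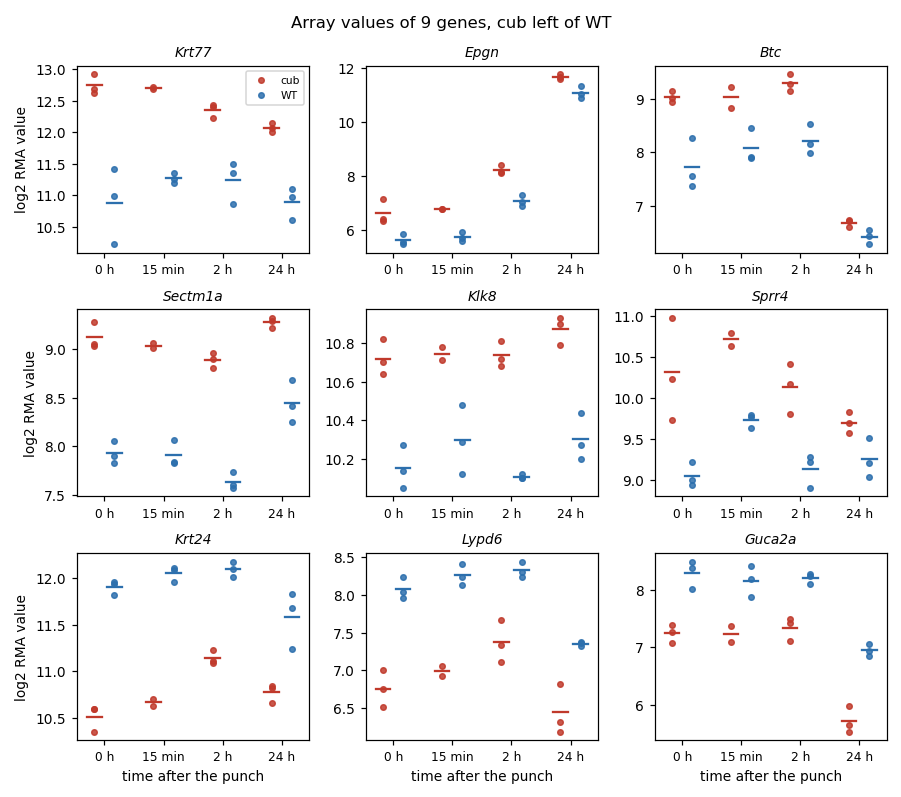
Log2 RMA value of each array (points) and mean of each group (bars) for 9 genes at 0 h, 15 min, 2 h and 24 h, with cub in red left of WT in blue. Each of the 9 genes separates the genotypes at every time, with cub above WT for Krt77, Epgn, Btc, Sectm1a, Klk8 and Sprr4 and below it for Krt24, Lypd6 and Guca2a. The level of Epgn climbed with time in both genotypes, from means under 7 at 0 h to above 11 at 24 h.

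Kallikreins, serine proteases that loosen the outer layers of the epidermis, rose as a run along chromosome 7. Of 22 tested epidermal proteases and inhibitors, 10 rose at all 4 times (45.5%, against 6.84% of all genes), 8 of them kallikreins (Klk5, Klk6, Klk7, Klk8, Klk9, Klk10, Klk11 and Klk13), and Serpinb12, a serine protease inhibitor, fell at −0.40. Klk8 had 10.64, 10.7 and 10.82 in cub ears at 0 h, against 10.14, 10.05 and 10.27 in WT ears. At 24 h it had 10.93, 10.79 and 10.9 in cub ears, against 10.44, 10.27 and 10.2 in WT ears. All cub arrays lay above all WT arrays, and the 4 differences ranged from 0.45 to 0.63 around an average of 0.55 ± 0.04 (SE, limma adjusted p = 3e-08). Between Klk13 and Klk5 on the chromosome, only Klk12 was not called, at −0.02 ± 0.05 (adjusted p = 0.819). Klk14 on the one side of the run and Klk4 and Klk15 on the other, at 0.03, 0.05 and 0.06, were not called either. Spink5, the inhibitor that restrains epidermal kallikreins, averaged 0.05 and was not called. The other proteases that rose were the lysosomal cathepsins Ctsc at 0.40 and Ctsh at 0.22.

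Of 23 barrier lipid and cell junction genes 5 were higher (21.7%) and 1 lower (4.35%) at all 4 times, against 6.84% and 6.03% of all genes. Elovl1, an elongase of very long fatty acids, averaged 0.25 ± 0.03 (SE, limma adjusted p = 2.12e-05) with all cub arrays from 11.91 to 12.1 and all WT arrays from 11.56 to 11.87. Abca12, the lipid transporter of lamellar granules, averaged 0.22 ± 0.04 (adjusted p = 0.000474). Cers3, a ceramide synthase, and the connexin Gjb6 also rose, by averages of 0.20 and 0.36. Gjb6 lost the call when the 24 h differences were left out of the average (adjusted p = 0.0665). Dsg1c, a desmosomal cadherin, averaged −0.56 ± 0.06 (adjusted p = 1.05e-06).

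EGFR ligands were higher in cub for 5 of 8 tested genes at all 4 times (62.5%, against 6.84% of all genes), and 1 was lower (12.5%, against 6.03%); Areg was not analysed here. Epgn (epigen), Ereg (epiregulin) and Btc (betacellulin) are neighbours in the order of tested genes on chromosome 5, and all 3 rose. Epgn had 6.33, 7.12 and 6.38 in cub ears at 0 h, against 5.45, 5.55 and 5.82 in WT ears. Its 24 h values were 11.77, 11.6 and 11.67 in cub ears, against 10.89, 11.03 and 11.35 in WT ears. The genotypes did not overlap at any time, although the mean of each was over 5 log2 units higher at 24 h than at 0 h. The average was 0.94 ± 0.08 (SE, limma adjusted p = 3.23e-07).

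Btc had 8.95, 9.16 and 9.02 in cub ears at 0 h, against 8.28, 7.55 and 7.37 in WT ears. The values at 24 h were 6.72, 6.59 and 6.71 in cub ears, against 6.27, 6.54 and 6.43 in WT ears. Its level was thus lowest at 24 h in both genotypes, and the difference there was 0.26, against 1.31 at 0 h. The average was 0.90 ± 0.10 (SE, limma adjusted p = 2.45e-06), and the F test over time did not pass (adjusted p = 0.0976). Ereg averaged 0.51 ± 0.11 (adjusted p = 0.00218) and Tgfa, transforming growth factor alpha, 0.30 ± 0.06 (adjusted p = 0.0012). Nrg1, a ligand of ErbB3 and ErbB4, averaged 0.23, and its relative Nrg4 averaged −0.27 ± 0.07 (adjusted p = 0.00763). On the near side of the ligands the next tested gene, Mthfd2l, averaged 0.01 and was not called, while Parm1 on the far side averaged 0.20 ± 0.05 (adjusted p = 0.00681). Hbegf and Egf, at 0.13 and 0.08, were not called.

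Rhbdf2 itself was not called in the average, at 0.06 ± 0.05 (SE, limma adjusted p = 0.377). Its differences were 0.41, 0.34, 0.00 and −0.49 in order of time, and the F test over time passed (adjusted p = 0.00181). Where its probes lie relative to the cub deletion was not examined, so its level is a weak check of the labels. Adam17 and Egfr, at 0.04 and 0.02, were not called. Of 13 tested receptors, iRhoms and sheddases 4 rose at all 4 times (30.8%, against 6.84% of all genes) and none fell. Without replicate 1 of WT at 24 h 1 member rose, and without replicate 3 of WT at 24 h 2 members did. Rhbdf1, which encodes iRhom1, averaged 0.13 ± 0.04 (adjusted p = 0.0159), and the EGFR inhibitors Errfi1 and Lrig1 averaged 0.19 ± 0.03 and 0.15 ± 0.03 (adjusted p = 0.000222 and 0.00308). The call of Rhbdf1 ended without the 0 h or the 15 min differences (adjusted p of at most 0.121), and that of Adam8, at 0.20, in 19 of the 36 alternatives. Among 26 immediate early and MAPK feedback genes 4 rose at all 4 times (15.4%, against 6.84% of all genes). They were Spry2, Spry4, Spred1 and Fosl2, with averages of 0.10 to 0.19. Each of the 4 lost the call without the 24 h differences, and the calls of Spry2 and Spry4 ended in 15 and 11 of the 36 alternatives. Without the 24 h differences no member of that list was called in the average with 1 sign at the remaining times.

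NRF2, encoded by Nfe2l2, is the transcription factor that switches on antioxidant genes, and KEAP1 holds it in check. Of 32 tested genes of this pathway 4 rose and 3 fell at all 4 times, or 12.5% and 9.38%, near the 6.84% and 6.03% of all genes, so the values below describe single genes. Without replicate 2 of cub at 15 min or replicate 2 of cub at 24 h 2 members rose. Hmox1, haem oxygenase 1, had 9.6, 9.93 and 9.32 in cub ears at 0 h, against 9.19, 8.94 and 8.86 in WT ears. At 2 h it had 10.8, 11.0 and 10.36 in cub ears, against 9.85, 9.81 and 9.73 in WT ears. At 24 h the groups overlapped, with 11.04, 11.27 and 11.17 in cub ears, against 11.16, 11.04 and 10.95 in WT ears. The average was 0.44 ± 0.08 (SE, limma adjusted p = 0.000437). Nfe2l2 averaged 0.13 ± 0.03 (adjusted p = 0.00472), Txnrd1, thioredoxin reductase, 0.15, and Ephx1, an epoxide hydrolase, 0.17 ± 0.03 (adjusted p = 0.000844).

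Gclc, Aldh3a1 and Tkt were the 3 members of the pathway that fell at all 4 times. Gclc, the catalytic subunit of glutamate-cysteine ligase in glutathione synthesis, had 9.2, 9.21 and 9.17 in cub ears at 0 h, against 9.59, 9.66 and 9.58 in WT ears. At 2 h the groups overlapped, with 9.71, 9.77 and 9.64 in cub ears, against 9.89, 9.69 and 9.82 in WT ears. The average was −0.26 ± 0.04 (SE, limma adjusted p = 0.000206). Gclm, its modifier subunit, and Slc7a11, the cystine importer, were called at −0.18 and −0.25 without holding 1 sign, with differences of 0.04 at 2 h and 0.33 at 24 h. Aldh3a1, an aldehyde dehydrogenase, averaged −0.26 ± 0.06 (adjusted p = 0.00605), and Tkt, transketolase, −0.12. Keap1 and Nqo1, at −0.02 and −0.07, were not called. Members of 1 sign thus lay on both sides, and the median of the list was −0.02, against 0.01 for all genes tested.

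Of 26 other detoxification enzymes (glutathione S-transferases, P450 and alcohol dehydrogenases) 2 were higher and 6 lower in cub at all 4 times, or 7.69% and 23.1%, against 6.84% and 6.03% of all genes. The median of the list was −0.06. Adh6b, an alcohol dehydrogenase, had 7.54, 7.64 and 7.33 in cub ears at 0 h, against 9.02, 9.22 and 9.08 in WT ears. At 24 h it had 8.45, 8.69 and 8.47 in cub ears, against 8.9, 8.85 and 9.16 in WT ears. The average was −1.20 ± 0.06 (SE, limma adjusted p = 4.6e-11), and the difference shrank from −1.60 at 0 h to −0.43 at 24 h (F test over time, adjusted p = 0.00168). A further row of the array for Adh6b, at a mean level of 4.50, averaged −0.01 and was not called, so the rows disagreed. Cyp2b23, a P450 of the 2B group outside that list, averaged −1.07 ± 0.11 (adjusted p = 1.65e-06), and Aox4, an aldehyde oxidase of skin that oxidises retinal, −1.0 ± 0.15 (adjusted p = 0.000113). Gsta3 averaged −0.40 ± 0.06 (adjusted p = 5.53e-05). Cyp2e1 averaged 0.53, a call that 16 of the 36 alternatives ended (adjusted p of at most 0.44).

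Sebaceous gland genes fell in 11 of 22 tested cases at all 4 times (6.03% of all genes did), and 2 rose (9.09%, against 6.84% of all genes), the largest of all averages among them. Scd3, a stearoyl-CoA desaturase, had 10.39, 9.89 and 10.74 in cub ears at 0 h, against 8.56, 7.31 and 7.7 in WT ears. At 24 h the groups overlapped, with 8.14, 7.91 and 8.36 in cub ears, against 8.85, 7.07 and 7.83 in WT ears. The average was 1.71 ± 0.18 (SE, limma adjusted p = 2.77e-06), and the difference varied over time (F test, adjusted p = 0.0284).

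Awat2, which makes the wax esters of sebum, was the other gene to rise, with cub arrays from 7.26 to 9.27 and WT arrays from 6.81 to 7.52. Its average was 1.16 ± 0.11 (SE, limma adjusted p = 5.85e-07). Its relative Awat1 went against it at −0.33, and Scd1, the main desaturase of the gland, averaged −0.09. Hsd3b6, a steroid dehydrogenase, averaged −0.53 ± 0.07 (adjusted p = 1.37e-05), and Elovl3, an elongase of the gland, −0.39 ± 0.08 (adjusted p = 0.00103). The remaining members that fell (Mgst1, Elovl5, Far2, Fa2h, Cidea, Mc5r and Fasn) averaged between −0.38 and −0.12. Without the 24 h differences, 6 members of the list fell at all the remaining times, and without replicate 2 of WT at 24 h 1 member rose. Fewer gland cells and less RNA per cell cannot be told apart in these whole-tissue samples, here and for every cell type below.

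Among genes of fatty acid use, 4 of 18 rose (22.2%, against 6.84% of all genes) and 2 fell (11.1%, against 6.03%) at all 4 times. Pdk4, a kinase that keeps pyruvate out of mitochondria, had 9.83, 10.67 and 9.66 in cub ears at 0 h, against 7.29, 7.37 and 7.41 in WT ears. At 2 h the groups overlapped, with 9.6, 10.25 and 9.5 in cub ears, against 9.5, 9.25 and 9.79 in WT ears. The average was 1.48 ± 0.12 (SE, limma adjusted p = 4.56e-08), and the F test over time passed (adjusted p = 0.000935). Ucp3, a mitochondrial carrier of muscle, averaged 0.74 ± 0.09 (adjusted p = 7.63e-06), with differences of 1.35, 0.88, 0.12 and 0.60. Fabp3 and Angptl4, a fatty acid carrier and an inhibitor of lipoprotein lipase, averaged 0.52 ± 0.08 and 0.48 ± 0.08 (adjusted p = 0.000112 and 0.000224). Ppara, a nuclear receptor of fatty acids, averaged −0.25. Skeletal muscle markers, 2 of 21 higher at all 4 times (9.52%, near the 6.84% of all genes), averaged over the list from 10.11 to 10.98 in cub arrays and from 9.76 to 11.02 in WT arrays. At 0 h the list mean was 10.89 to 10.98 in cub arrays and 10.57 to 10.81 in WT arrays, and at the later times the genotypes overlapped. The list medians of the differences were 0.22, −0.03, −0.13 and 0.29 in order of time. The part of muscle in the Pdk4 and Ucp3 differences was not tested.

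Hair follicle genes rose in 4 of 28 tested cases at all 4 times (14.3%, against 6.84% of all genes) and fell in 2 (7.14%, near the 6.03% of all genes). Leaving out the 15 min or the 24 h differences gave 2 and 7 that rose, and leaving out the 0 h or the 24 h differences, replicate 3 of WT at 2 h or replicate 3 of cub at 24 h gave none that fell. Krt25, a keratin of the inner root sheath, had 6.7, 5.69 and 8.05 in cub ears at 0 h, against 5.85, 5.73 and 6.01 in WT ears. At 15 min it had 8.22 and 7.98 in cub ears, against 5.84, 5.92 and 5.78 in WT ears. Its 24 h values were 6.15, 5.79 and 6.55 in cub ears, against 6.26, 5.84 and 5.76 in WT ears. The WT arrays stayed within 5.73 to 6.26 throughout, whereas the cub arrays spread widely within a time. The average was 1.15 ± 0.18 (SE, limma adjusted p = 0.000142). Krt71 and Krt27, of the same sheath, averaged 0.78 ± 0.14 and 0.39 ± 0.08 (adjusted p = 0.000452 and 0.00228), and both differed most at 15 min. Msx2 and Foxn1, transcription factors of the hair matrix, averaged −0.17 and −0.12.

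**Figure D4:**
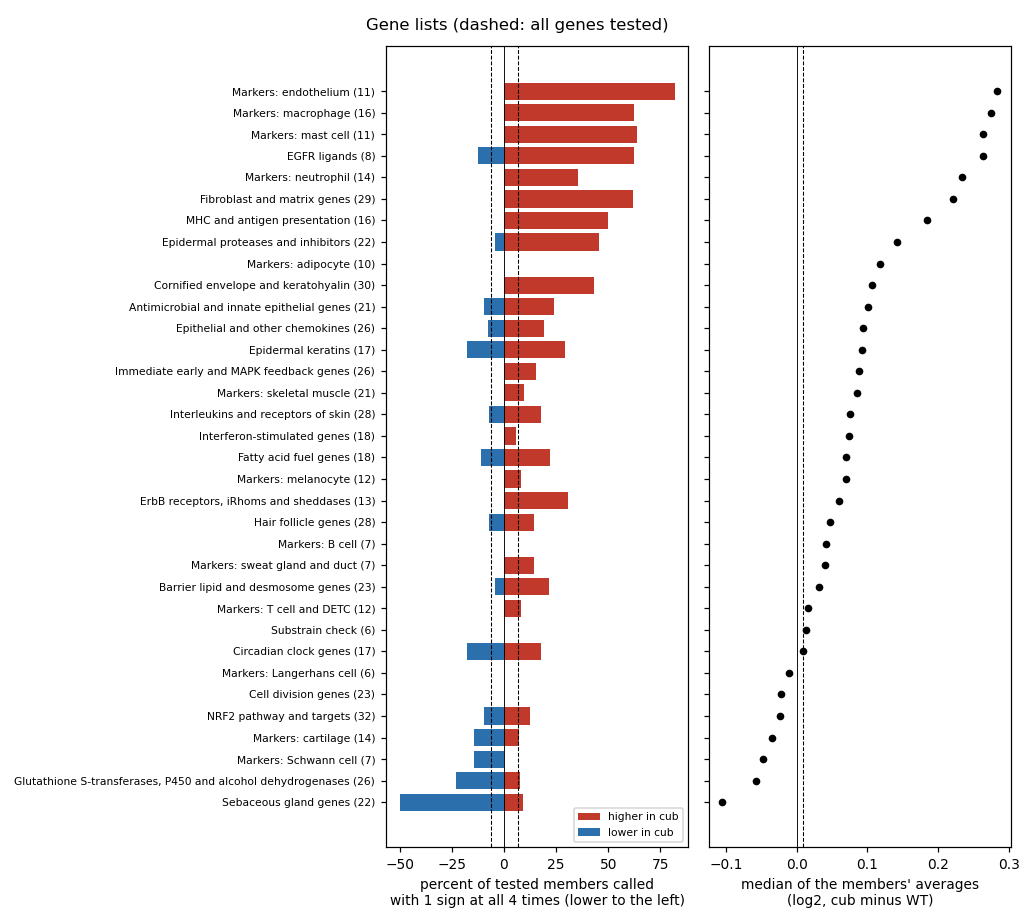
Left, percent of the tested members of each list (number in brackets) called with 1 sign at all 4 times, to the right of 0 where higher in cub and to the left where lower. Right, median of the members' averages (log2, cub minus WT). Dashed lines give the same over all 19938 genes. Endothelium has the highest median at 0.28 and sebaceous gland genes the lowest at −0.11; lists of under 5 tested genes are not drawn.

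Genes of fibroblasts and matrix rose in 18 of 29 tested cases at all 4 times (62.1%, against 6.84% of all genes), and none fell. Their median average was 0.22, with medians of 0.24, 0.07, 0.53 and 0.20 in order of time. Col14a1, a collagen of fibril surfaces, had cub arrays from 8.59 to 9.87 and WT arrays from 7.95 to 9.22, with no overlap within any time. Its average was 0.63 ± 0.08 (SE, limma adjusted p = 8.92e-06). Ccn3, a matricellular protein, averaged 0.62 ± 0.06 (adjusted p = 5.46e-07), with a difference of 1.21 at 2 h, and the F test over time passed (adjusted p = 0.0162). Mfap5, of elastic microfibrils, and Col3a1 averaged 0.52 ± 0.06 and 0.43 ± 0.05 (adjusted p = 6.47e-06 and 8.04e-06). Col1a1, Col1a2 and Eln, elastin, were also of 1 sign, at 0.39, 0.32 and 0.37. Dcn and Postn, at −0.01 each, and Lum, at 0.16, were not called. Without replicate 3 of cub at 15 min, 12 members of the list rose at all 4 times.

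Of 11 endothelial markers 9 rose at all 4 times, against 6.84% of all genes, with the list mean from 8.33 to 8.64 in cub arrays and from 8.10 to 8.32 in WT arrays. Plvap, of fenestrated vessels, averaged 0.42 ± 0.04 (SE, limma adjusted p = 3.95e-07), Tek, the angiopoietin receptor, 0.37 ± 0.04 (adjusted p = 6.63e-06), and Cdh5, the junction cadherin, 0.35 ± 0.04 (adjusted p = 2.45e-06). Angpt2, an angiopoietin that binds the Tek receptor, had differences of 0.51, 0.49, 0.59 and 0.46 in order of time and averaged 0.51 ± 0.06 (adjusted p = 8.92e-06).

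Of 16 macrophage markers 10 rose at all 4 times (62.5%, against 6.84% of all genes), but 4 rose at all the remaining times without the 2 h differences, and 6 at all 4 times without replicate 3 of cub at 15 min. Cd163, a scavenger receptor of resident macrophages, averaged 0.53 ± 0.08 (SE, limma adjusted p = 0.000207), and Mrc1, the mannose receptor, 0.40 ± 0.10 (adjusted p = 0.0068). Of 11 mast cell markers 7 rose (63.6%), without the 2 h differences 2, and without replicate 3 of cub or replicate 1 of WT at 15 min 4. Fcer1a, the ligand-binding chain of the IgE receptor, had cub arrays from 5.13 to 6.11 and WT arrays from 4.63 to 5.77, with no overlap within a time. Its average was 0.51 ± 0.06 (adjusted p = 5.68e-06). Ctsg, cathepsin G, known from neutrophils and mast cells, averaged 0.67 ± 0.09 (adjusted p = 4.18e-05) with differences from 0.61 to 0.77. Cpa3 and Mcpt4, proteases of connective tissue mast cells, averaged 0.42 ± 0.10 and 0.38 ± 0.10 (adjusted p = 0.00394 and 0.00797), with 0.89 and 0.90 at 2 h. Of 14 neutrophil markers 5 rose (35.7%), and 3 without the 2 h or the 24 h differences, with list medians of 0.05 at 0 h, 0.15 at 15 min, 0.61 at 2 h and 0.42 at 24 h. Retnla, a marker of alternatively activated macrophages, averaged 0.89 ± 0.17 (adjusted p = 0.000751).

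No marker of adipocytes (10 tested), Langerhans cells (6) or B cells (7) and no cell division gene (23) held 1 sign with a call. Of all genes 6.84% did so higher in cub and 6.03% lower. Counts of 0 or 1 in lists of 12 members or fewer thus say little about a cell type. Aurka and Aurkb, mitotic kinases, were called at −0.13 and −0.20 without 1 sign. The list mean of adipocyte markers ranged from 8.77 to 9.79 among the 3 cub arrays at 0 h, against 8.72 to 8.85 in WT. Of 12 T cell markers 2 were called, 1 of them with 1 sign (8.33%), Cd2 at 0.16, a call lost without the 24 h differences (adjusted p = 0.14). Of 14 cartilage markers 1 rose (7.14%, near the 6.84% of all genes) and 2 fell (14.3%, against 6.03%) at all 4 times. Comp averaged 0.33 ± 0.06 (SE, limma adjusted p = 0.000458), and Cnmd and Matn3 −0.21 and −0.15. The call of Cnmd ended in 16 of the 36 alternatives, and that of Matn3 without the 2 h differences (limma adjusted p = 0.274). Of 12 melanocyte markers 2 were called, 1 of them with 1 sign (8.33%), Kit at 0.26, which mast cells also express. Of 7 Schwann cell markers 1 was called higher without 1 sign and 1 lower with 1 sign (14.3%). The latter was S100b at −0.26, a call that ended in 14 of the 36 alternatives. The erythroid gene Alas2 averaged 0.61 ± 0.18 (adjusted p = 0.0205), with cub arrays from 6.99 to 9.72 and WT arrays from 6.96 to 7.97. Its call ended in 5 of the 36 alternatives. None of the 4 sex-linked genes tested was called.

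Antigen presentation genes rose in 8 of 16 tested cases at all 4 times, against 6.84% of all genes, and none fell. H2-Q4, a class I molecule, averaged 0.94 ± 0.10 (SE, limma adjusted p = 1.65e-06), with differences of 1.31 and 1.22 at 0 h and 15 min, against 0.58 and 0.63 at 2 h and 24 h. Its neighbour H2-Q5 averaged 0.62 ± 0.05 (adjusted p = 3e-08); class I genes are near-identical copies, and probes may read more than 1 of them. Tap1, a peptide transporter, and Psmb9, an immunoproteasome subunit, averaged 0.44 ± 0.06 and 0.30 ± 0.05 (adjusted p = 8.26e-05 and 0.000233). Both differed by 0.50 or more at 0 h and 15 min and by less than 0.20 at 2 h and 24 h, and the F test over time passed for both (adjusted p = 0.047 and 0.0383). B2m and the class II chaperone Cd74 averaged 0.22 and 0.15. Of 18 interferon-stimulated genes 1 rose at all 4 times, 5.56% and thus no more than among all genes (Ddx58, 0.20 ± 0.04, adjusted p = 0.00259). The list medians of the differences were 0.318, 0.199, −0.095 and 0.02 in order of time. The list mean was higher in every cub array than in every WT array at 0 h and at 15 min, and the genotypes overlapped at 2 h and 24 h.

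Chemokines rose in 5 of 26 cases at all 4 times (19.2%, against 6.84% of all genes) and fell in 2 (7.69%, near the 6.03% of all genes). Cxcl16, which macrophages and keratinocytes make, had cub arrays from 8.53 to 9.19 and WT arrays from 7.92 to 8.66 without overlap at any time, and averaged 0.49 ± 0.04 (SE, limma adjusted p = 4.96e-08). Ccl20, an attractant of CCR6-bearing cells, averaged 0.55 ± 0.13 (adjusted p = 0.00517), and Ccl9 0.49 ± 0.10 (adjusted p = 0.00192). The neutrophil attractants Cxcl1, Cxcl2 and Cxcl5, at 0.16, 0.09 and 0.06, were not called. Of 28 interleukins and receptors 5 rose (17.9%) and 2 fell (7.14%). The 5 became 2 without replicate 2 of cub at 15 min, 3 without replicate 2 of WT at 15 min or without the 0 h differences, and 8 without the 15 min differences. Il1a and Il18, cytokines of keratinocytes, averaged 0.45 ± 0.13 and 0.38 ± 0.06 (adjusted p = 0.0148 and 0.000154). Il20ra, a receptor for IL-20 cytokines, averaged −0.55 ± 0.07 (adjusted p = 9.71e-06), with −1.19 at 24 h, and its difference varied over time (F test, adjusted p = 0.0219). Of 21 antimicrobial and innate epithelial genes 5 rose (23.8%) and 2 fell (9.52%), and 3 rose without replicate 2 of WT or replicate 3 of cub at 0 h. Chil1, a chitinase-like protein, averaged −0.44 ± 0.11 (adjusted p = 0.00792), and Pglyrp3, a peptidoglycan receptor, 0.35 ± 0.06 (adjusted p = 0.000401).

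Clock genes, whose transcripts cycle over the day, moved on both sides, with 3 of 17 higher and 3 lower at all 4 times (17.6% each, against 6.84% and 6.03% of all genes). Arntl, which encodes the activator BMAL1, had 8.33, 8.3 and 8.28 in cub ears at 0 h, against 8.74, 8.77 and 8.76 in WT ears. The values at 24 h were 7.88, 7.99 and 7.59 in cub ears, against 8.16, 8.21 and 8.17 in WT ears. The groups did not overlap at any time, and the average was −0.37 ± 0.04 (SE, limma adjusted p = 1.87e-06). Clock, which encodes the partner of BMAL1, averaged −0.22 ± 0.03 (adjusted p = 0.000105), and Hlf, a PAR bZIP factor, −0.43 ± 0.06 (adjusted p = 5.39e-05).

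Dbp, a target of BMAL1 and CLOCK, had 10.05, 9.98 and 9.97 in cub ears at 0 h, against 9.71, 9.64 and 9.65 in WT ears. At 2 h it had 9.66, 9.75 and 9.62 in cub ears, against 9.39, 9.52 and 9.29 in WT ears, and at 24 h single arrays overlapped. The average was 0.30 ± 0.04 (SE, limma adjusted p = 2.56e-05). Nr1d1 and Nr1d2, repressors of Arntl, averaged 0.19 ± 0.04 and 0.14 ± 0.03 (adjusted p = 0.00103 and 0.00153). Per1 was called at 0.37 ± 0.05 (adjusted p = 5.67e-05) but stood at −0.01 at 2 h. The hour of the day at which each mouse was sampled was not given in the sources used here, and its part in these differences was not tested.

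The remaining large averages belonged to no list. Serpina3b, a secreted protease inhibitor, fell most of all genes, with 9.71, 10.55 and 9.68 in cub ears at 0 h, against 11.3, 11.45 and 11.1 in WT ears. At 24 h it had 8.52, 9.66 and 9.04 in cub ears, against 10.11, 10.74 and 10.66 in WT ears. The groups did not overlap at any time, and the average was −1.46 ± 0.17 (SE, limma adjusted p = 6.8e-06). Lypd6, a membrane-anchored regulator of Wnt signalling, averaged −1.11 ± 0.08 (adjusted p = 7.97e-09). Its 24 h values were 6.32, 6.82 and 6.19 in cub ears, against 7.36, 7.32 and 7.38 in WT ears. Guca2a, guanylin, a ligand of guanylate cyclase C in the gut, averaged −1.02 ± 0.07 (adjusted p = 1.81e-08). The values at 24 h were 5.54, 5.98 and 5.65 in cub ears, against 7.06, 6.94 and 6.85 in WT ears, and each genotype was lowest at that time.

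Sptssb, a small subunit of the enzyme that starts sphingolipid synthesis, averaged −0.98 ± 0.20 (SE, limma adjusted p = 0.00157), with −1.58 and −1.66 at 0 h and 15 min. Akr1c18, a hydroxysteroid dehydrogenase that inactivates progesterone, averaged −0.91 ± 0.16 (adjusted p = 0.000605) and differed most at 2 h and 24 h. Slc6a2, the noradrenaline transporter, averaged −0.85 ± 0.07 (adjusted p = 1.08e-07), and Lhpp, a phosphatase, −0.85 ± 0.09 (adjusted p = 2.66e-06). Tll1, a metalloprotease of the BMP1 group, averaged −0.68 ± 0.05 (adjusted p = 1.81e-08), with −0.23 at 24 h, and its difference varied over time (F test, adjusted p = 0.0242). Liph, a lipase whose product lysophosphatidic acid acts on hair growth, averaged 0.67 ± 0.07 (adjusted p = 7.82e-07). Slc38a4, an amino acid transporter, averaged 0.71 ± 0.08 (adjusted p = 4.97e-06), and P2ry4, a nucleotide receptor, 0.69 ± 0.08 (adjusted p = 6.79e-06).

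Some of the genes with large averages lay side by side. Of the 178 genes of 1 sign with an average of at least 0.4 in size, a limit chosen after the values were seen, 24 stood next to another in the order of tested genes, as 13 neighbouring pairs. How many such pairs other sets of 178 genes would form was not counted. In 10 of the 13 pairs both moved in 1 direction. Beside the keratins, ligands, kallikreins and class I genes these were Sprr4 with Ivl, Serpinb12 with Serpinb13, Casp1 with Casp4, and Tmem267 with Ccl28. Casp4, an inflammatory caspase, averaged 0.60 ± 0.08 (SE, limma adjusted p = 2.3e-05) and Casp1 0.41 ± 0.08 (adjusted p = 0.00157).

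In the other 3 pairs, neighbours moved in opposite directions. Sectm1a, a secreted protein that costimulates T cells, had 9.03, 9.28 and 9.05 in cub ears at 0 h, against 7.83, 8.05 and 7.9 in WT ears. At 24 h it had 9.29, 9.22 and 9.32 in cub ears, against 8.68, 8.25 and 8.41 in WT ears. Its average of 1.10 ± 0.05 had the smallest adjusted p of all genes (SE, limma adjusted p = 8.21e-12). Sectm1b, next to it on chromosome 11, had 5.64, 5.66 and 5.3 in cub ears at 0 h, against 5.86, 6.02 and 6.08 in WT ears, and averaged −0.41 ± 0.07 (adjusted p = 0.000202). Krt24 and Krt25 on chromosome 11 averaged −1.14 and 1.15. Serpinb6d and Serpinb6e on chromosome 13 averaged −0.70 ± 0.09 and 0.71 ± 0.09 (adjusted p = 3.2e-05 and 2.3e-05). Serpinb6e had 4.67 to 6.05 in cub arrays and 4.34 to 4.61 in WT arrays, near the bottom of the scale. The Sectm1 and Serpinb6 pairs are close copies, and whether their probes tell them apart was not tested.

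**Figure D5:**
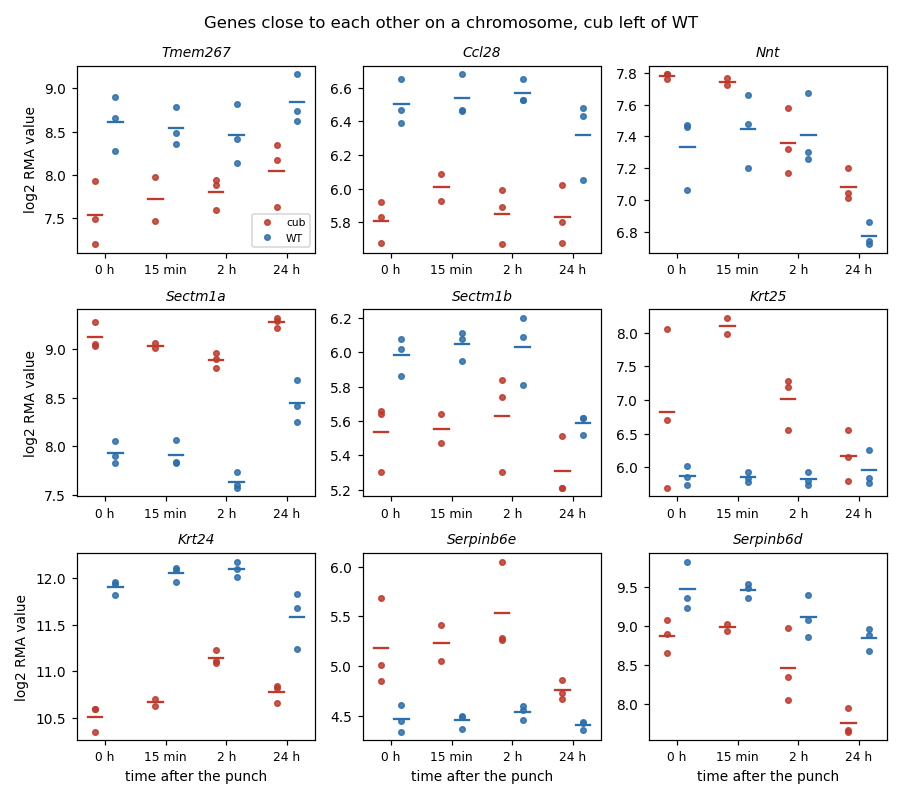
Log2 RMA value of each array (points) and group means (bars) over the 4 times, with cub in red left of WT in blue, for Tmem267 and Ccl28 with Nnt near them on chromosome 13, and for the opposed neighbours Sectm1a and Sectm1b, Krt25 and Krt24, and Serpinb6e and Serpinb6d. Cub lies below WT for Tmem267, Ccl28, Sectm1b, Krt24 and Serpinb6d and above it for Sectm1a and Serpinb6e.

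Tmem267 and Ccl28 on chromosome 13 fell together. Tmem267, a transmembrane protein, had 7.93, 7.2 and 7.49 in cub ears at 0 h, against 8.66, 8.9 and 8.28 in WT ears, and averaged −0.83 ± 0.11 (SE, limma adjusted p = 3.55e-05). Ccl28, a chemokine of mucosal and skin epithelia, had 5.92, 5.68 and 5.83 in cub ears at 0 h, against 6.47, 6.65 and 6.39 in WT ears, and averaged −0.61 ± 0.06 (adjusted p = 5.85e-07). Neither pair of groups overlapped at any time. Hmgcs1, an enzyme of cholesterol synthesis on the far side of Ccl28, averaged −0.20 ± 0.03 (adjusted p = 0.000331). Nnt, a mitochondrial transhydrogenase that C57BL/6J mice are known to carry in a truncated form, lies 5 tested genes away from Ccl28. It had 7.79, 7.79 and 7.76 in cub ears at 0 h, against 7.47, 7.46 and 7.06 in WT ears, but the groups overlapped at 2 h. Its average was 0.25 ± 0.06 (adjusted p = 0.0091), without 1 sign.

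The genes around Rhbdf2 on chromosome 11 were called about as often as other genes. Of the 50 tested genes on each side, 12% were called with 1 sign, against 13.7% of the genes over 100 tested genes away on the chromosome and 12.9% on other chromosomes. None of these 100 neighbours had arrays free of overlap at all 4 times, against 1.18% of all genes tested. At that share, counts in windows of this size say little. St6galnac2, a sialyltransferase, averaged 0.24 ± 0.04 (SE, limma adjusted p = 0.000267), and Nt5c, a nucleotidase, −0.18 ± 0.04 (adjusted p = 0.00219). Of the 100 tested genes on each side, 1 had arrays free of overlap at all 4 times, against the same 1.18% of all genes tested. It was Slc9a3r1, 55 tested genes from Rhbdf2, at 0.29 ± 0.03 (adjusted p = 2.81e-07). Sectm1a, whose arrays did not overlap either, and Sectm1b also lie on chromosome 11, outside the 100 tested genes on each side of Rhbdf2. How far outside that window they lie was not examined. Over whole chromosomes the share called with 1 sign ran from 9.61% on X to 14.5% on 13.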

How the data were processed

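The authors deposited log2 values; the submitters' processing notes name RMA and Affymetrix Expression Console 1.1, and no annotation release. The deposited table held 35556 rows with values from 2.92 to 13.84 and array medians from 6.37 to 6.46, and precision is limited by how many arrays there are. Of the rows 21789 had 1 gene symbol, 1621 several and 12146 none in the platform annotation; only the first were used, and 21698 of them matched the GRCm38.p6 gene table, used for names and gene order. For the 999 genes with several rows the row with the highest mean was kept, which left 19938 genes.

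In R 4.3.3, limma 3.58.1 estimated 1 mean per genotype and time, with 15 residual and 5.61 prior degrees of freedom, and all 23 arrays. P values were two-sided and adjusted by Benjamini-Hochberg over all genes within each contrast, at 0.05. The median average over all genes was 0.01. The fit was tested on simulated data. The submitters' own test, R/maanova, was not run.

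The comparison, the 36 gene lists (648 genes, 598 tested, 50 not analysed here) and the rules were chosen with earlier results of these data known. Genes named were 12 fixed genes that were tested, the 15 largest averages of 1 sign in each direction, the 10 of each direction with the largest smallest difference, and up to 4 per list and near Rhbdf2; further members are named to account for a list, and others where the text says so. Arrays were labelled as separate biological replicates. Same-numbered cub and WT arrays did not pair throughout (correlation of their deviations from −0.30 to 0.26 over 11 pairs, above 0.1 in 5). At 0 h these correlations were 0.07, 0.18 and 0.21, and pairing at that time alone was not tested. The replicate block was therefore only an alternative. The others were median-centring, quantile normalization, a filter on low values, every row, mean of rows, other moderation, array weights, an additive model, each time and each array left out, and windows of 25 and 100 genes around Rhbdf2.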

Additional observations from a re-analysis of the deposited data

Results flagged for a closer look

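The genotype difference varied over the 4 times, by the moderated F test in limma adjusted over all genes, for 10 of the genes named above. Pdk4 (adjusted p = 0.000935), Scd3 (adjusted p = 0.0284) and Ucp3 (adjusted p = 0.0365) had their largest differences at 0 h or 15 min. Tap1 (adjusted p = 0.047) and Psmb9 (adjusted p = 0.0383), of antigen presentation, were likewise further apart at 0 h and 15 min than later. Adh6b (adjusted p = 0.00168) and Tll1 (adjusted p = 0.0242) were lower in cub at every time and least so at 24 h. Il20ra (adjusted p = 0.0219) differed most at 24 h, and Ccn3 (adjusted p = 0.0162) at 2 h. Rhbdf2 (adjusted p = 0.00181) was the one whose difference changed sign, from 0.41 at 0 h to −0.49 at 24 h. No group held 4 to 10 arrays, so single arrays were not tested as outliers.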

How the results depend on the processing

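Of the 124 named genes that were called, 94 kept the call and the direction under all 36 alternatives run on single genes, 30 lost the call at least once, and none changed sign. The sign changed for 3 genes that were not called: Rhbdf2 without 0 h (−0.0511) and without 15 min (−0.0278), Keap1 without 24 h (0.0106) and without replicate 3 of cub at 15 min (from −0.0358 to 0.0017 over the arrays left out), and Nqo1 without 24 h (0.02). The 3641 called genes became 2118 without the 0 h differences. The 236 genes without overlapping arrays became 434, 527 and 605 when 15 min, 2 h and 24 h were left out, since fewer times had to separate. The 35 genes called at each time likewise became 79, 68 and 70, and 22 without moderation. The 300 genes that varied over time became 478 after quantile normalization, 135 without moderation and 629 with array weights. With 1 array left out, 2816 to 4022 genes were called, 1997 to 2773 with 1 sign, 243 to 342 without overlap and 6 to 36 at each time (6 without replicate 3 of cub at 15 min), 144 to 718 varied over time (718 without replicate 2 of cub at 15 min, the lone cub array there being assumed to vary like the others) and 247 to 673 passed both at 0 h and in the wounded mean. The replicate block gave 3412 called genes, 2437 of 1 sign and 202 that varied over time. The replicate numbers were not shown to pair the arrays. Windows of 25 and 100 genes around Rhbdf2 gave 10% and 14.5% called with 1 sign. After quantile normalization the medians of the sex-linked and the substrain check lists changed sign, at −0.00577 and −0.00305 against 0.0125 and 0.0133 in the values as deposited.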
